A study of Mus musculus with 4 samples.

Results

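Annexins and S100 proteins were followed as 10 genes, Anxa1 to Anxa6 with S100a6, S100a10, S100a11 and S100a14, measured by all 11 probes annotated to them among the 25697 probes of an Illumina MouseRef-8 v2.0 bead array. The livers were those of Lats1/2-deficient (DKO) mice, genotype Lats1-/-;Lats2f/fl;Alb-cre, and of control mice labelled wild type, with 2 arrays for each group. All mice were of the B6;129 mixed strain, were labelled female, were taken at postnatal day 1 and were born to the same pregnant mice. By this genotype Lats1 is lost in all cells of the DKO animals, whereas Lats2 is deleted only where the albumin-driven Cre recombinase is active, that is, in hepatoblasts and the cells they give rise to. LATS1 and LATS2 are Hippo pathway kinases that phosphorylate YAP and TAZ and so keep these co-activators of transcription in check, and the arrays were made to ask how their loss alters gene expression in the newborn liver. Control replicate 2 stood apart before any comparison, since its transcripts linked to sex read as male against its female label, and the called annexin, S100, partner and plasminogen genes are also given without it. The control arrays thus came from different animals. Nothing in the labels ties the DKO arrays to an animal each, and the p-values reflect only the spread among these 4 samples, which for the DKO arrays may be technical.

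Annexins are calcium-dependent proteins that bind acidic phospholipids on the inner face of membranes, where they organise membrane domains, vesicle traffic and the attachment of actin. S100 proteins are small EF-hand proteins, in which binding of calcium exposes a surface that grips a partner, and several of those partners are annexins. The best known pair is S100A10 with annexin A2, which assemble into a complex at the plasma membrane. S100A11 binds annexin A1 and S100A6 can bind annexin A2 among others. In liver, annexin A2, S100A6 and S100A11 are abundant in bile duct epithelium and low in hepatocytes.

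Probes of Anxa2, Anxa3, Anxa5, S100a6 and S100a10 were higher in DKO livers than in control livers, by 3.55-fold to 14.3-fold. A probe was tested if detected on at least 2 of the 4 arrays (detection p, the share of negative controls brighter than the probe, under 0.05), and called if its p-value, adjusted over all tested probes, was under 0.05. Changes are differences in log2 intensity after background correction and quantile normalization. Anxa3 was called by both of its probes, so that 6 of 10 tested member probes (5 of 9 tested genes) were higher and 0 were lower in the limma fit (by unadjusted p under 0.05, also 0 lower), and 4 probes were not called. In the background, 1.63% of the 13654 tested probes were called higher, 1.61% lower and 3.24% in either direction. Taken by gene (9502 genes, each by its brightest tested probe), these shares were 1.75%, 1.68% and 3.43%. By unadjusted p under 0.05 in limma, 2087 of the 13654 probes passed in either direction. The members were chosen with earlier results of these data known, so these figures do not test their calls. The median log2 change, DKO minus control, was 2.29 over the 10 tested member probes, 1.83 over the 7 annexin probes, 2.83 over the 3 S100 probes and 0.0055 over all tested probes. Of the 6 calls, 1 was kept when dim probes were not filtered out. In the paired t-test of the study's methods, with an adjustment added here, 0 were kept. With 2 pairs that test called only 1 probe higher and 1 lower among all 13654. S100a11, Anxa4 and Anxa6 had positive changes that did not pass the threshold, and Anxa1 had a negative one. S100a14 was detected on 1 of the 4 arrays and was not tested. In whole liver RNA, a change in the number of cells of a type and a change in RNA per cell cannot be told apart.

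**Figure D1:**
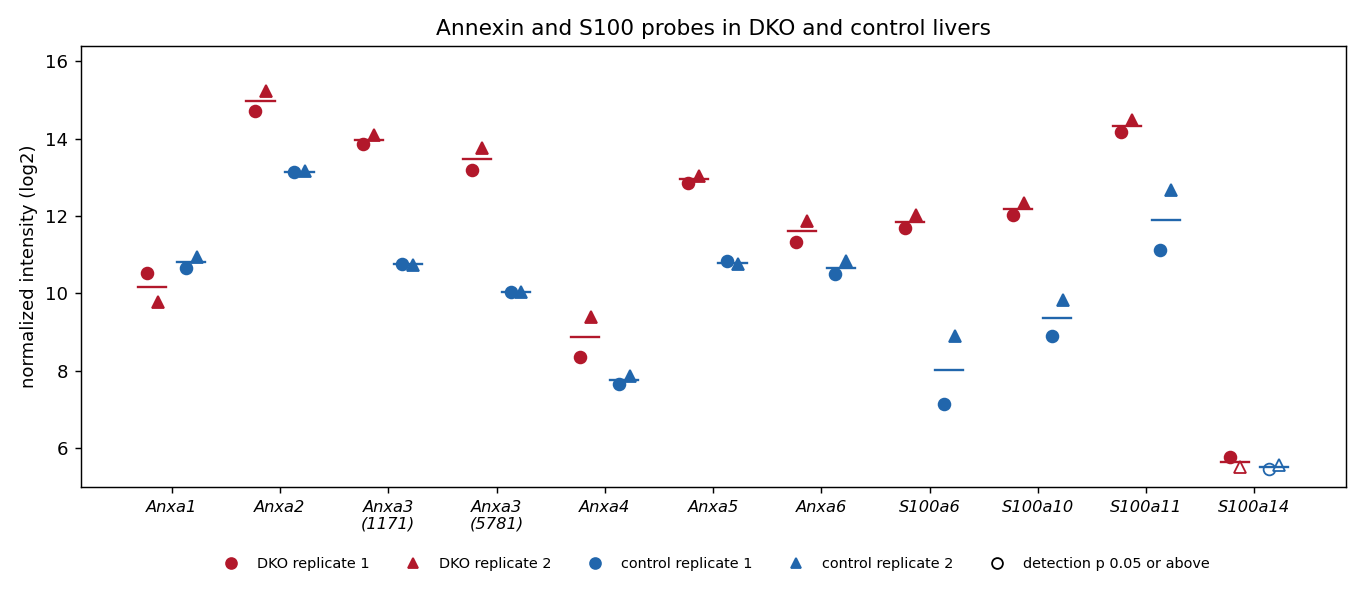
Normalized log2 intensity (vertical axis) of the 11 member probes (horizontal axis; the digits under Anxa3 end its 2 probe names) on each array, DKO in red and control in blue, with circles for replicate 1, triangles for replicate 2, horizontal lines for group means and open symbols for a detection p of 0.05 or above. Both DKO arrays lie above both control arrays for 9 of the 10 tested probes and below them for Anxa1, and the gaps between the control arrays are wider for S100a6, S100a10 and S100a11 than for the other members.

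The bases just before the start of transcription are shown for Anxa2 and S100a11, whose probes were brighter in both DKO arrays, and for Anxa1, whose probe was not, since these are the member windows that hold a searched motif. Windows of 250 bases from RefSeq (build GRCm38.p6) were used for 6 of the 10 genes, with 7 windows in all. Capitals mark matches, on either strand, to GGAATG, the core recognised by TEAD, the DNA-binding partner of YAP and TAZ, or to TGANTCA, the site of AP-1. The 2 motifs can share only the letters TG (CA on the other strand) and were counted separately. Each window is written 5′ to 3′ along the strand of its gene and ends at the base before the start.
Anxa2, chr9:69453433-69453682, plus strand: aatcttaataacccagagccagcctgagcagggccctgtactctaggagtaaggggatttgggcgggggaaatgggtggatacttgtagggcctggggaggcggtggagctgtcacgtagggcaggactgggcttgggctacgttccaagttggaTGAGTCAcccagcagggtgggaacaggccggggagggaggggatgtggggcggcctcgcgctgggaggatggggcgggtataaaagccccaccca
S100a11, chr3:93520246-93520495, plus strand: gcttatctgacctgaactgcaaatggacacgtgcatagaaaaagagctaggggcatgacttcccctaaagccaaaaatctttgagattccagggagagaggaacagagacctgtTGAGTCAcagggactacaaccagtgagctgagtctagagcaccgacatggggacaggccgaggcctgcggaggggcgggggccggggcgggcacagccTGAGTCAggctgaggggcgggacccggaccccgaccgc
Anxa1, chr19:20390672-20390921, minus strand: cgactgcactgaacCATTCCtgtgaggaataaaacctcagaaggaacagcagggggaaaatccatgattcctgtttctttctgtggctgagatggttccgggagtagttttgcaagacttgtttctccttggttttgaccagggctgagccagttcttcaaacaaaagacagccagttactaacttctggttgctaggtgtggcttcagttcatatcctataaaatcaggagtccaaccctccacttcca
TGANTCA occurred once before Anxa2, 95 bases from the start, and at 136 and 38 bases before S100a11, and thus in 2 of the 7 member windows against 6.75% of 32851 windows of the same length. GGAATG was found in 1 of the 7, before Anxa1, where its reverse complement stands 236 bases from the start, against 12.6% of all windows. A match is a description of the letters and does not show that a factor was bound.

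Anxa2 and S100a10, which encode the membrane complex named above, were both higher in DKO livers. The raw Anxa2 intensity was 27547 and 38360 in the DKO arrays, against 9411 and 8946 in the control arrays. On the normalized log2 scale these were 14.72 and 15.25 in DKO, against 13.13 and 13.18 in control, so that the groups lay apart by at least 1.54 while the control arrays nearly coincided. The change was 1.83 (SE 0.36, 95% interval 0.99 to 2.66, adjusted p = 0.042), or 3.55-fold. This call was close to the threshold: it was lost without control replicate 1 (1.80, adjusted p = 0.19), without control replicate 2 (1.85, adjusted p = 0.15) and without DKO replicate 2 (1.56, adjusted p = 0.19). S100a10, also called p11, differs from other S100 proteins in that its EF-hands do not bind calcium, so that it can bind annexin A2 at any calcium level. Its raw intensity was 4312 and 5222 in DKO, against 704 and 963 in control. The normalized log2 values were 12.04 and 12.34 in DKO and 8.91 and 9.82 in control, a change of 2.83 (SE 0.41, 95% interval 1.85 to 3.80, adjusted p = 0.015), or 7.09-fold. Both DKO arrays were therefore far above either control array, although the control arrays were 0.91 apart. Without control replicate 1 the S100a10 change was 2.37 with an adjusted p of 0.081, and the call was lost, whereas without control replicate 2 it was 3.28 (adjusted p = 0.026).

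Anxa3, an annexin known from neutrophil granules and from epithelia, had the largest change of the annexins and was measured by 2 probes. For the first (ILMN_1241171) the raw intensity was 14708 and 17127 in DKO, against 2156 and 1682 in control. Its normalized log2 values were 13.85 and 14.09 in DKO and 10.77 and 10.73 in control, a change of 3.22 (SE 0.33, 95% interval 2.44 to 4.0, adjusted p = 0.0044), or 9.32-fold. For the other (ILMN_3135781) the normalized log2 values were 13.19 and 13.76 in DKO and 10.04 and 10.04 in control, a change of 3.44 (SE 0.36, adjusted p = 0.0044), or 10.9-fold. The 2 probes thus gave changes of similar size for 1 gene, and both stayed called with any 1 array left out (3.10 to 3.34 and 3.16 to 3.72).

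Anxa5 encodes the annexin best known as a ligand of phosphatidylserine and as a stain for dying cells. Its raw intensity was 7609 and 8576 in DKO, against 2236 and 1714 in control. The normalized log2 values were 12.85 and 13.04 in DKO and 10.84 and 10.76 in control, a change of 2.15 (SE 0.33, 95% interval 1.37 to 2.93, adjusted p = 0.018), or 4.44-fold. In both groups the 2 arrays lay within 0.19 of each other. The size of the change hardly moved when a control array was left out, but with 1 control array the adjusted p was 0.092 (without replicate 1, change 2.19) or 0.090 (without replicate 2, change 2.11) and the call was lost.

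S100a6, or calcyclin, a dimeric S100 protein of proliferating and epithelial cells, had the largest change of all members. Raw intensity was 3464 and 4221 in DKO, against 312 and 582 in control. The normalized log2 values were 11.70 and 12.02 in DKO and 7.14 and 8.89 in control, a change of 3.84 (SE 0.57, 95% interval 2.50 to 5.18, adjusted p = 0.015), or 14.3-fold. Its interval was the widest among the member probes, and its control arrays differed by 1.75 on the log2 scale. Without control replicate 2 the change was 4.72 (adjusted p = 0.013) and without control replicate 1 it was 2.97 (adjusted p = 0.043), so the call was kept either way. Without background correction the change was 3.17 (adjusted p = 0.051) and the call was lost.

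S100a11, the S100 protein that pairs with annexin A1, was detected on every array and just missed the threshold. Raw intensity was 19231 and 23135 in DKO, against 2652 and 6355 in control. The normalized log2 values were 14.19 and 14.48 in DKO and 11.13 and 12.66 in control, a change of 2.44 (SE 0.53, 95% interval 1.2 to 3.68, unadjusted p = 0.0022, adjusted p = 0.060). The DKO arrays lay at least 1.52 above the control arrays, while the control arrays themselves differed by 1.54. Without control replicate 2 the change was 3.21 (adjusted p = 0.027), without control replicate 1 it was 1.67 (adjusted p = 0.20), and without DKO replicate 1 it was 2.59 (adjusted p = 0.014).

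Anxa4 and Anxa6 differed less between the groups. Anxa4, which binds membranes in epithelial and secretory cells, had normalized log2 values of 8.37 and 9.38 in DKO, against 7.66 and 7.87 in control. Its change of 1.11 (SE 0.43, 95% interval 0.11 to 2.11, adjusted p = 0.27) was close to the 1.02 by which the DKO arrays differed from each other. Anxa6, the member of the family with a duplicated core and a role in endosomes and cholesterol transport, had 11.33 and 11.89 in DKO, against 10.49 and 10.83 in control. Its change was 0.95 (SE 0.37, 95% interval 0.08 to 1.81, adjusted p = 0.28). Neither passed the threshold. The smallest change called among all tested probes in this fit was 1.65.

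Anxa1, whose protein product limits inflammation by acting on formyl peptide receptors, was the only member with a negative change. Its raw intensity was 1615 and 994 in DKO, against 2022 and 1968 in control. The normalized log2 values were 10.54 and 9.79 in DKO, against 10.66 and 10.96 in control, and only 0.13 separated the nearest arrays of the 2 groups. The change of -0.65 (SE 0.39, 95% interval -1.56 to 0.27, adjusted p = 0.53) did not pass the threshold. Its interval does not reach the intervals of Anxa2, Anxa3, Anxa5, S100a6, S100a10 and S100a11, but the difference between genes was not tested. Fpr2, a receptor of annexin A1, is named here after its values were seen. It had 10.85 and 9.98 in DKO and 10.84 and 11.25 in control, so that the groups overlapped (change -0.63, adjusted p = 0.57). The summed linear intensity of 8 granulocyte markers, which include S100a8 and S100a9, was 98634 and 90411 in DKO, against 103014 and 149384 in control, with 0 of the 8 called in limma and 1 lower at an unadjusted p under 0.05. S100a8, the brightest of the 8, read 15.64 and 15.60 in DKO and 15.62 and 15.90 in control on the log2 scale, and so weighs heavily in this sum. The part of granulocytes in the Anxa1 values was not tested.

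S100a14, an S100 protein of epithelia, was at the limit of detection. Its raw intensity was 205 and 199 in DKO, against 194 and 195 in control, with detection p-values of 0.0063 and 0.079 in DKO and 0.058 and 0.068 in control. Only DKO replicate 1 was therefore above background. The normalized log2 values, 5.77 and 5.52 in DKO and 5.47 and 5.56 in control, overlapped, and no change could be resolved.

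**Figure D2:**
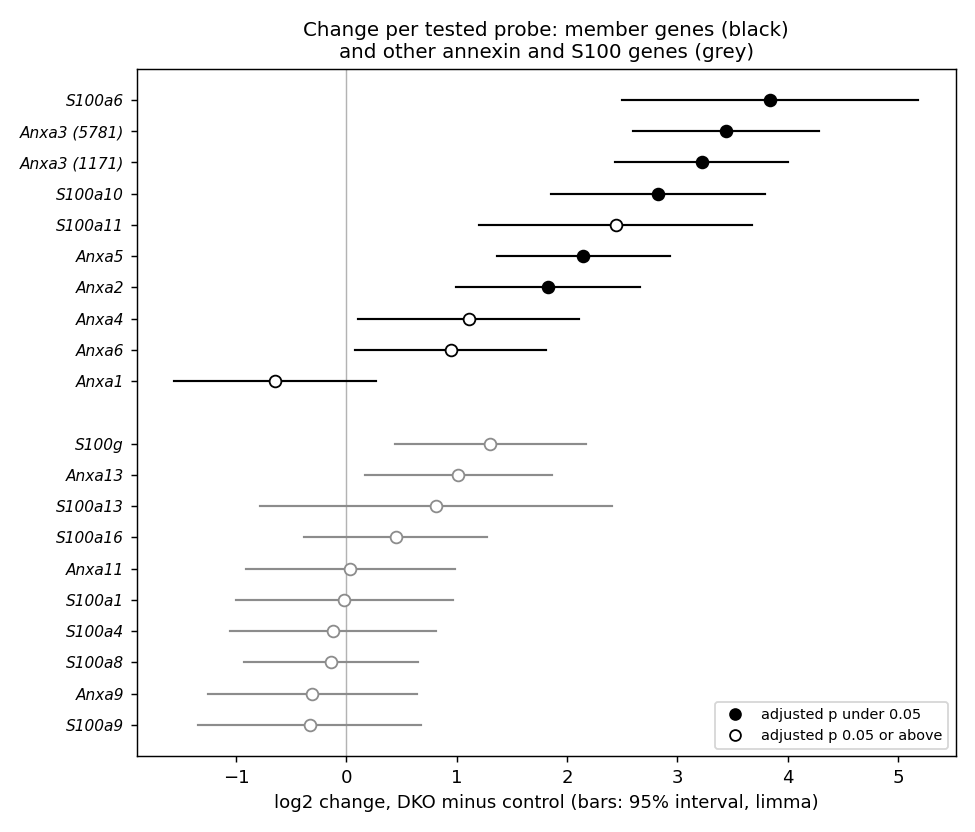
Log2 change, DKO minus control (horizontal axis), of each tested probe of the member genes (black, upper rows) and of the other annexin and S100 genes (grey, lower rows), with bars for the 95% interval of the limma fit and filled symbols for an adjusted p under 0.05. Filled symbols run from 1.83 for Anxa2 to 3.84 for S100a6, and none of the grey rows is filled. The split into black and grey was made with earlier results of these data known.

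**Figure D3:**
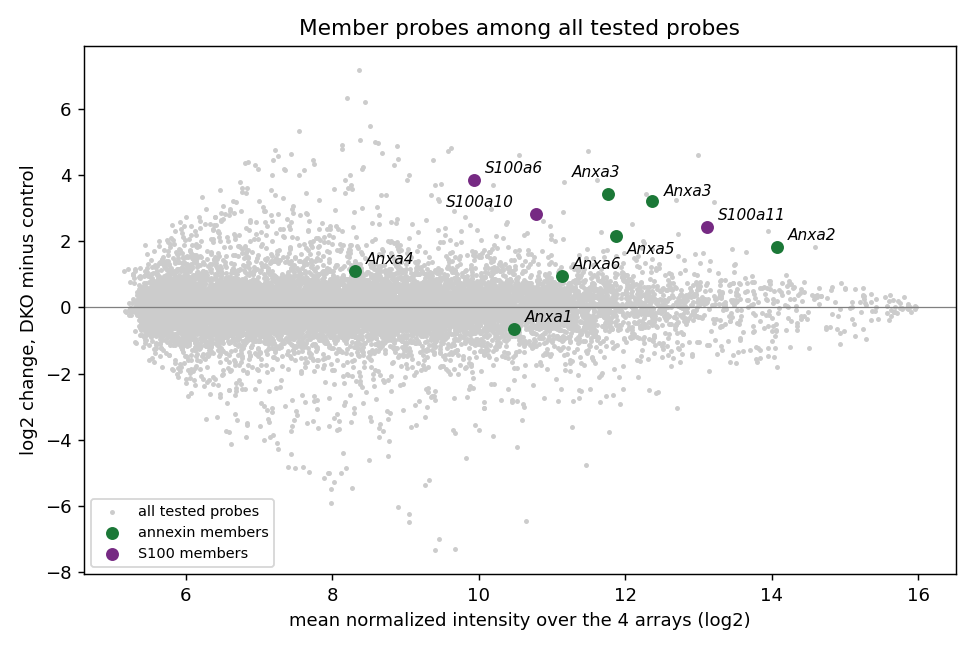
Log2 change, DKO minus control (vertical axis), against the mean normalized log2 intensity over the 4 arrays (horizontal axis) for all 13654 tested probes (grey), with annexin members in green and S100 members in purple. The called members and S100a11 lie above the bulk of probes of their brightness, and Anxa1, Anxa4 and Anxa6 lie within it or at its edge.

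Counted by array, all 10 tested member probes separated the groups without overlap, 9 with both DKO arrays above both control arrays and 1, Anxa1, below them. With 2 arrays a group this is common: 44.3% of all tested probes had no overlap, 22.3% with DKO above and 22% with DKO below. In rank, S100a6 was 44th from the top of the 13654 changes, the Anxa3 probes 63rd and 74th, S100a10 101st, S100a11 151st, Anxa5 197th and Anxa2 291st. Anxa4 was 770th and Anxa6 1013th, and Anxa1, with its negative change, 11803rd.

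Between the control arrays, the member annexin probes differed by -0.08 to 0.34 on the log2 scale (replicate 2 minus replicate 1), and the 9 tested annexin genes, members and others, by -0.89 to 0.84, with 6 of 9 higher in replicate 2 and a median of 0.19. S100a6 differed by 1.75, S100a11 by 1.54 and S100a10 by 0.91, and these gaps were larger than those of 97.9%, 96.5% and 83.5% of tested probes. All 10 tested S100 genes, the 3 members and 7 others, were higher in control replicate 2 than in control replicate 1, by 0.28 to 2.25 with a median of 0.94, against 51.7% of all tested genes with a median of 0.02. Between the DKO arrays, 9 of the 10 member probes were higher in replicate 2, against 51.3% of all tested probes. Control replicate 2 also stood apart in transcripts linked to sex: Eif2s3y, on the Y chromosome, was at 4.76 and 4.94 in DKO and 4.69 and 11.31 in control, and Xist, of the inactive X, at 9.76 and 9.07 in DKO and 9.86 and 5.16 in control. Sex and other differences between the 2 control livers cannot be told apart.

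No other tested gene of either family was called in limma. Since the members were chosen with earlier results of these data known, their contrast with the other genes was not a test. Of 6 other annexins 3 were tested and 0 were called (1 at an unadjusted p under 0.05), with a median change of 0.04. Anxa13, an annexin of intestinal epithelium, had 6.03 and 6.59 in DKO, against 5.20 and 5.39 in control, where it was not above background. On the background-corrected scale it was at least 1.64-fold higher in DKO, counted from the lowest level detected on the control arrays (change 1.02, adjusted p = 0.24; 0.33 in the authors' normalized values), and Anxa9 had a change of -0.31 (adjusted p = 0.82). Of 12 other S100 genes 7 were tested and 0 were called (1 at an unadjusted p under 0.05), with a median change of -0.02. At that unadjusted threshold, 2087 of all 13654 tested probes passed in either direction. S100g, the vitamin D-responsive calcium buffer of the intestine, had 6.45 and 6.83 in DKO, against 5.08 and 5.59 in control, where it was again not above background, and on the same scale was at least 2.06-fold higher (change 1.31, adjusted p = 0.13; 0.45 in the authors' normalized values). S100a13, which takes part in the release of proteins that lack a signal peptide, had 7.88 and 8.05 in DKO, against 6.03 and 8.28 in control, and its control arrays lay on either side of both DKO arrays (change 0.81, adjusted p = 0.67).

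All 4 S100 members lie on mouse chromosome 3, in the RefSeq annotation of GRCm38.p6, among other S100 genes. S100a6 stands between S100a5, not detected on any array, and S100a7a, also not detected. The tested genes nearest to it, S100a4 and S100a8, had changes of -0.12 (adjusted p = 0.95) and -0.14 (adjusted p = 0.92) and were not called. S100a11 and S100a10 are next to each other, with other gene families between them and the rest. S100a14 lies between S100a13 and S100a16, whose change was 0.45 (adjusted p = 0.65).

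**Figure D4:**
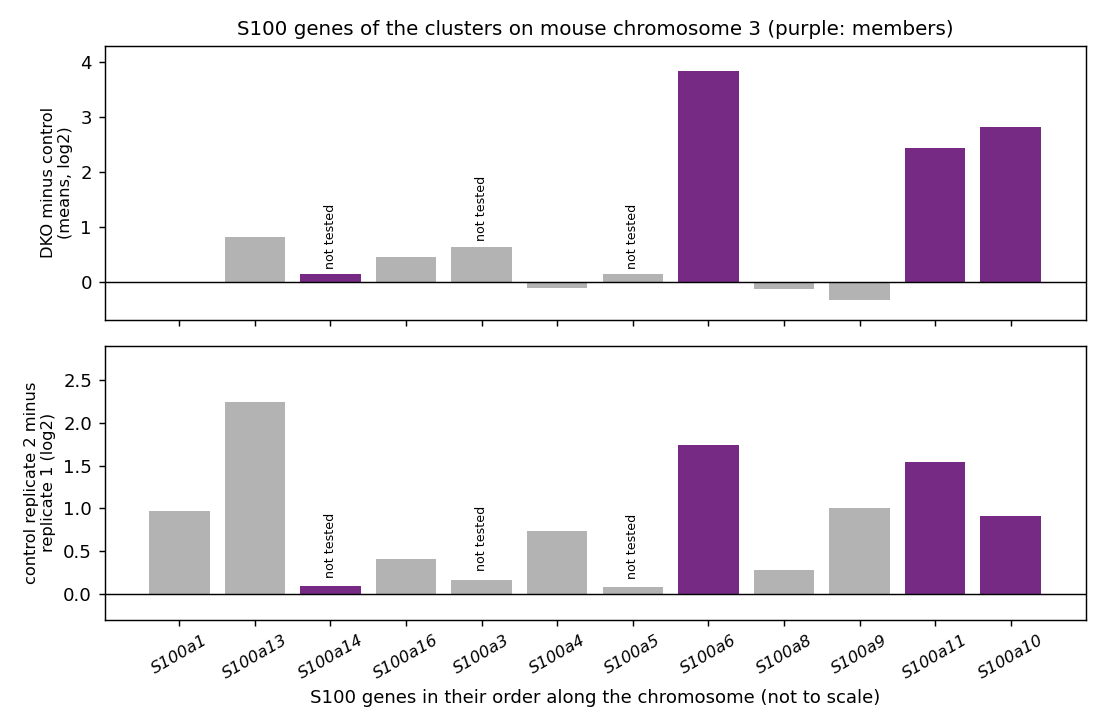
The S100 genes of chromosome 3 in their order along the chromosome (horizontal axis, not to scale), members in purple and others in grey. The upper panel gives the difference of the group means, DKO minus control, and the lower panel control replicate 2 minus control replicate 1, both in log2 units with bars from 0. S100a6, S100a11 and S100a10 stand out in the upper panel at 2.44 to 3.84, and every bar of the lower panel is above 0. S100a14, S100a3 and S100a5 were above background in neither control array, so their lower bars compare undetected values. S100a7a, not detected on any array, is not drawn.

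Of 15 binding partners and receptors of these proteins, 6 were tested, 2 were higher in DKO and 0 were lower. Ahnak, the very large scaffold protein that the annexin A2 and S100A10 complex anchors under the plasma membrane, had 12.02 and 12.05 in DKO, against 7.96 and 8.73 in control, a change of 3.69 (SE 0.38, adjusted p = 0.0044), or 12.9-fold. Its other probe was detected on 1 array and was not tested. Ager, which encodes RAGE, a cell surface receptor for several S100 proteins, had 10.78 and 11.28 in DKO, against 5.90 and 6.78 in control, a change of 4.69 (SE 0.42, adjusted p = 0.0034), or 25.7-fold. Its other probe was not above background in the control arrays, and its DKO mean was at least 15.5-fold higher on the background-corrected scale (adjusted p = 0.0033). The nearest DKO and control arrays were further apart for both partners than for any member. Without control replicate 2 the change was 4.08 for Ahnak (adjusted p = 0.014) and 5.13 for the first Ager probe (adjusted p = 0.013). Without background correction the Ager probes had changes of 3.25 and 2.40, so that the bound holds only after this correction, and both genes missed the threshold when dim probes were not filtered out (adjusted p = 0.060 for Ahnak and 0.059 for Ager). The median change of the 6 tested partners was 0.45, and the 4 that were not called had changes of -0.63 to 0.47.

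The complex of annexin A2 and S100A10 is also known as a plasminogen receptor, and of 9 genes of the plasminogen system 6 were tested and 1 was called. Plaur, the urokinase receptor, had 9.12 and 9.15 in DKO, against 6.11 and 7.04 in control, a change of 2.56 (SE 0.41, adjusted p = 0.020), or 5.88-fold. This call was lost without control replicate 1 (2.09, adjusted p = 0.10) and without background correction (1.51, adjusted p = 0.051), and kept without control replicate 2 (3.02, adjusted p = 0.030). The Plaur call was also lost when dim probes were not filtered out (adjusted p = 0.11) and in the methods' paired t-test (adjusted p = 0.51). Plg, plasminogen itself, is made by hepatocytes and is named here after its values were seen. Its brightest probe had 13.12 and 13.30 in DKO, against 14.67 and 14.70 in control (change -1.48, adjusted p = 0.067). The other Plg probes had smaller changes of -1.20 (adjusted p = 0.36) and -1.01 (adjusted p = 0.23), and none was called. Among 17 other EF-hand proteins 12 were tested and 0 were called in limma, with a median change of 0.20. By unadjusted p under 0.05 it was 1 of the 12, against 2087 of all 13654 tested probes. Capns1, the small calpain subunit, had 1.03 (adjusted p = 0.18), and Chp1, a partner of sodium-proton exchangers, had -0.71 (adjusted p = 0.47).

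Markers of bile duct epithelium had changes in the same direction as most members. Of 10 such markers 4 were tested and 3 were higher in DKO and 0 lower, among them Krt7 (change 5.0, adjusted p = 0.0042) and Krt19, which was not above background in either control array and was at least 15.9-fold higher on the background-corrected scale (adjusted p = 0.0064). Krt7 and the other tested markers, Cldn4 (change 5.49, adjusted p = 0.013) and Sox9 (change 0.84, adjusted p = 0.35), were above background in 1 control array. In the authors' normalized values the log2 differences of these dim markers were smaller, at 2.60 for Krt19, 3.46 for Krt7 and 3.76 for Cldn4, so that the bound depends on the background correction. The summed linear intensity of the 4 tested markers was 3132 and 10423 in DKO, against 172 and 232 in control. DKO replicate 2 had the larger sum, and of the 4 markers Cldn4 differed most between the DKO arrays, at log2 9.95 and 12.57. Markers of other cell types had medians below 0. Of 8 tested hepatocyte markers 1 was called lower and 0 higher, with a median of -0.25 and 2 positive and 6 negative changes. The called one was Cyp2e1 (change -7.34, adjusted p = 0.0033). It was above background in 1 of 2 DKO arrays and had -5.49 in the authors' normalized values. Ttr and Trf (0.03 each), Apoa1 (-0.08) and Ahsg (-0.14) hardly changed, but lay close to the array maximum of 16.01. Of the tested fibroblast and stellate, endothelial, macrophage, mesothelial, megakaryocyte, erythroid and B cell precursor markers 0 were called, with medians of -1.01 to -0.49. In limma 11 of these 45 had an unadjusted p under 0.05, 0 of them higher and 11 lower. Of all 13654 tested probes, 2087 had such a p, in either direction. Of these sums, that of 9 fibroblast and stellate markers was 16730 and 7407 in DKO, against 26093 and 13208 in control. The part of cell composition in the annexin and S100 values was not tested.

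The arrays were alike in quality, with 48.7% to 53.1% of probes detected, and correlated at 0.95 within groups and at 0.86 to 0.92 between them. Their number limits the precision, with a median SE of 0.37 for the log2 changes. A probe of Lats2 read 6.54 and 6.07 in DKO, against 5.92 and 5.47 in control, and since its place relative to the deleted part is unknown here, it does not check the genotype.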

How the data were processed

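Total RNA from newborn mouse liver was amplified with a biotin label and read on 4 MouseRef-8 v2.0 bead arrays. The authors deposited linear, non-normalized probe intensity together with detection p-values, and a table of normalized intensity that was treated as quantile normalized. Scanner software and background step: not given in the sources used here. Groups and replicate numbers came from the sample titles. The platform annotation gave 23978 of 25697 probes 1 symbol, 0 several and 1719 none, and 23962 matched RefSeq by Entrez identifier with 0 differing symbols.

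Background was corrected by normexp from the detection p-values (offset 16, which pulls the changes of dim probes toward 0) in limma 3.58.1 (R 4.3.3), followed by quantile normalization and log2 transformation. The fit took the 13654 probes detected (p under 0.05) on 2 or more of the 4 arrays and used a linear model with eBayes, two-sided. Benjamini-Hochberg adjustment ran over every probe fitted, with a threshold of 0.05. No replicate block was used. The fit was tested on simulated data. Listed genes were represented by their brightest tested probe. A fold given as "at least" is a bound on the background-corrected scale only: on each array of the group without detection, the probe's own value was raised to the lowest detected value where it lay under it. It compares means and leaves out the spread between arrays, so the interval of the change can reach lower. The folds of Anxa13 and S100g were counted in the same way. The study's methods name a paired t-test for statistics in general, and for the arrays a p under 0.05 with no test or adjustment named. The paired t-test was run as an alternative beside other background, normalization, filter and variance choices and each array left out.

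Every member probe was named. From the lists of related genes those past the threshold were named or, where none passed, the 2 with the largest change. The members and lists were chosen with earlier results of these data known.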

Additional observations from a re-analysis of the deposited data

How the results depend on the processing

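The 10 tested member probes were each refitted under 15 alternatives. Of these 150 comparisons 121 kept the direction and the side of the threshold, 23 kept the direction and lost the call, 6 gained a call and 0 turned in direction. The 121 include probes without a call that stayed so, and all 23 losses fell on the 6 called probes. Anxa2 lost its call in 7 of its 15 alternatives. The count of 6 higher member probes was also 6 with an offset of 50, median scaling, either stricter filter and the authors' normalized values. It was 4 without background correction (Anxa2 and S100a6 lost) and 7 with a trended, robust variance (S100a11 gained). With no filter on dim probes, 1 was called, an Anxa3 probe, and over all 25697 probes then tested 19 were higher. Leaving out 1 array at a time gave 3 to 7, with 3 without control replicate 1. In those fits the lone array of a group is assumed to vary like the others. The methods' t-test gave 0 after Benjamini-Hochberg adjustment, where 1 probe in all was higher and 1 lower, and 2 at an unadjusted p under 0.05 (an Anxa3 probe and Anxa5), where 591 in all were higher and 779 lower. By that unadjusted test 1 other annexin or S100 gene was higher, S100g, against 0 in limma.

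Same-numbered arrays share only a number: their deviations from the group means correlated at 0.54 over 13654 probes, and with 2 pairs this does not establish pairing. With the replicate block, 9 member probes were higher (Anxa4, Anxa6 and S100a11 added), as were 2 other annexin or S100 genes (Anxa13 and S100g), while 926 probes in all were higher (6.78%) and 938 lower.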
